A study of Mus musculus with 18 samples.

Results

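Threonine tRNAs carry threonine to the ribosome, and they were followed here through small RNA libraries of microglial, astroglial and neuronal fractions of mouse brain. The set comprised every tRNA row of the count table whose identifier names tRNA-Thr. These rows were 17 gene copies of 407 tRNA gene copies and of 203513 features in all. Copies of one gene sequence were summed into an isodecoder, which gave 14 threonine isodecoders of 218 tRNA isodecoders. The anticodon AGT held 9 copies in 7 isodecoders, CGT held 4 copies in 4 isodecoders, and TGT held 4 copies in 3 isodecoders. The family was chosen by measured values, namely its counts in KIN against WT in the astroglial and microglial fractions. Those 2 contrasts are therefore described without a test, whereas the neuronal contrast and the contrasts between fractions were tested.

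The animals were wild-type (WT) mice and mice homozygous for the Atxn2-CAG100-KIN allele (KIN), in which an expanded CAG repeat was knocked into Atxn2 as a model of spinocerebellar ataxia type 2. All were untreated, aged 10 months and on a C57BL/6 background. By the study's methods a KIN animal and its WT littermate were of the same sex, with 2 pairs male and the other female. Magnetic beads took microglia by CD11b and then astrocytes by ACSA-2, and neurons were what remained after other cells had been bound, so the fractions came in sequence from one brain and can hold other cells. Each of the 6 groups (3 fractions, 2 genotypes) had 3 libraries. Equal amounts of RNA entered each library, so that fewer cells of a type and less of an RNA per cell cannot be told apart.

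As background, a tRNA is charged by its synthetase and reads a codon with the 3 bases of its anticodon. Threonine has its own synthetases in cytosol and mitochondria. Isodecoders share an anticodon but differ in the rest of the body. The first base of AGT is edited to inosine, which lets this tRNA read several threonine codons, while CGT and TGT tRNAs read those ending in G or A. Cytosolic threonine tRNAs bear the t6A modification next to the anticodon, and stressed cells cut tRNAs near the anticodon into fragments. A small RNA library counts fragments and full tRNAs together, and the count table does not separate them.

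The sequences of the abundant members, and of those that later differed between fractions, are shown because the family falls into distinct bodies. They were read from the mouse genome build GRCm39 by a scan for the tRNA stems and an anticodon of threonine. The scan gave 17 loci with all 20 stem pairs, and their numbers by anticodon and length equalled those of the count table. The loci had 14 distinct sequences, of which 4 could be named one to one. Capitals mark the anticodon, and each sequence runs 5′ to 3′ without the CCA end.
tRNA-Thr-AGT-1 (chr11:68928679-68928752, plus strand, and 2 identical loci): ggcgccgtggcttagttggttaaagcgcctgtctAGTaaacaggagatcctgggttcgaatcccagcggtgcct
tRNA-Thr-CGT-1 or CGT-2 (chr11:79595476-79595547, plus strand): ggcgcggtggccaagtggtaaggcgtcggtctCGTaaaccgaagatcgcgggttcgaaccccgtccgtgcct
tRNA-Thr-CGT-1 or CGT-2 (chr16:13255187-13255258, plus strand): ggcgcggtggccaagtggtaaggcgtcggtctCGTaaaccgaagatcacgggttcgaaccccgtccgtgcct
tRNA-Thr-CGT-3 or CGT-4 (chr13:21448750-21448823, plus strand): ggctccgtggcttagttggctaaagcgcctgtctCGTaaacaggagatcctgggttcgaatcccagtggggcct
tRNA-Thr-CGT-3 or CGT-4 (chr13:21506983-21507056, plus strand): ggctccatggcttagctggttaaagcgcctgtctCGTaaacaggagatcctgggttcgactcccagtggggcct
tRNA-Thr-TGT-1 (chr13:21460126-21460199, plus strand): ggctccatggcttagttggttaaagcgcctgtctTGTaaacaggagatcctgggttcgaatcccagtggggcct
tRNA-Thr-TGT-2 (chr14:51326107-51326179, plus strand): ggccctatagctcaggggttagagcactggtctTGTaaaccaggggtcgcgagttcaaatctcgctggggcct
tRNA-Thr-TGT-3 (chr11:48744446-48744518, plus strand, and 1 identical locus): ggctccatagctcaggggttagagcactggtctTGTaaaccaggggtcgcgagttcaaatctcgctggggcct

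The anticodon did not follow the body. CGT-1 and CGT-2 were 72 bases long and differed from each other at 1 base. TGT-2 and TGT-3 were 73 bases long and differed at 2 bases. All other isodecoders, which were AGT-1 to AGT-7, CGT-3, CGT-4 and TGT-1, were 74 bases long and 86.5% to 98.6% identical. Within that class, each of the CGT sequences matched TGT-1 at 95.9% of positions, with 3 differences. The same CGT sequences matched the 72-base CGT pair at only 73.3% to 76.0% of positions. The 17 loci lay on chromosomes 13 (7 loci), 11 (5), 14 (3), 7 (1) and 16 (1). By the GENCODE annotation 9 were intergenic, 4 lay in introns and 4 overlapped an exon. The 72-base loci overlapped exons of the noncoding genes Gm11205 and, on chromosome 16, Gm41421, the 74-base CGT loci lay in introns of the noncoding genes Gm60918 and Gm60909, and the TGT-2 locus was intergenic, 2355 bases from Ang. Only 7.27% to 50.9% of the 20-base stretches of a sequence occurred in no other threonine tRNA, so a short read often fits several isodecoders and counts of single isodecoders are uncertain. Identical copies received similar counts: the 3 copies of AGT-1 had 223, 224 and 212 reads in WT astrocyte replicate 1.

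The libraries held 1211118 to 4316748 counts, of which 288 to 12242 fell on threonine tRNAs. Neuronal libraries were the shallowest, and WT neuron replicate 1 had the 288. Myeloid miRNAs (4 of 4 listed were found) summed to 9184 CPM (counts scaled to a library total of 1000000) in WT microglia and 16448 CPM in KIN microglia, against 27.6 and 58.6 CPM in the astroglial fractions. The miR-9 pair, which marks astrocytes and neural progenitors, summed to 7410.0 CPM in WT and 7180.4 CPM in KIN astrocytes. In the neuronal fraction this pair summed to 1576 CPM in WT and 3114 CPM in KIN. The 4 neuronal miRNAs summed to 141 and 128 CPM in WT and KIN neurons, and to 2028 and 1607 CPM in the astroglial fractions, so that these markers did not single out the neuronal fraction. The 3 oligodendrocyte miRNAs also stood higher in astrocytes, at 2323 CPM in WT and 4163 CPM in KIN. Transcripts of Atxn2 had 0 to 10 counts per library, which cannot check the genotype. Xist, the transcript of the inactive X chromosome, stood at 1.27 to 2.13 CPM in KIN replicate 1 of the 3 fractions, at 10.2 to 36.3 CPM in KIN replicates 2 and 3, and at 7.59 to 25.6 CPM in WT libraries. Y-linked transcripts stood at 0.288 to 8.27 CPM over all libraries. Among WT libraries, replicate 2 had the lowest Y-linked value in each fraction, at 2.01 CPM in astrocytes, 0.288 in microglia and 2.04 in neurons. WT replicates 1 and 3 had 2.88 to 8.27 CPM. Xist in WT replicate 2 was the highest WT value in astrocytes and neurons (25.6 CPM in both), but not in microglia (10.4 CPM). Among KIN libraries, replicate 1 had the highest Y-linked value in each fraction. Low Xist was thus seen in KIN replicate 1 and in no WT library, which does not match the stated pairs of one sex. Whether the genotypes were matched by sex is therefore uncertain here, and the part of sex in the results was not tested. Without KIN replicate 1, the KIN over WT difference of the family given below was 0.85 in astrocytes, 0.93 in microglia and 0.54 in neurons. Without WT replicate 2, this difference was 0.84 in astrocytes, 2.12 in microglia and 1.05 in neurons.

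Threonine tRNAs together took 0.0238% to 0.341% of a library. In WT astrocytes they had 2094, 2102 and 1940.3 CPM. KIN astrocytes had 3227, 3412 and 3214 CPM, all above the WT libraries. WT microglia had 637, 1778 and 586 CPM, and KIN microglia 2590.4, 1757 and 1945 CPM. Replicate 2 of WT microglia thus lay within the KIN range, and the other two lay below it. WT neurons had 238, 947 and 848 CPM, and KIN neurons 1558, 1057 and 849 CPM. From high to low the group means ran KIN astrocytes, KIN microglia, WT astrocytes, KIN neurons, WT microglia and WT neurons. KIN microglia and WT astrocytes overlapped, as did the last 3 groups among themselves.

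**Figure D1:**
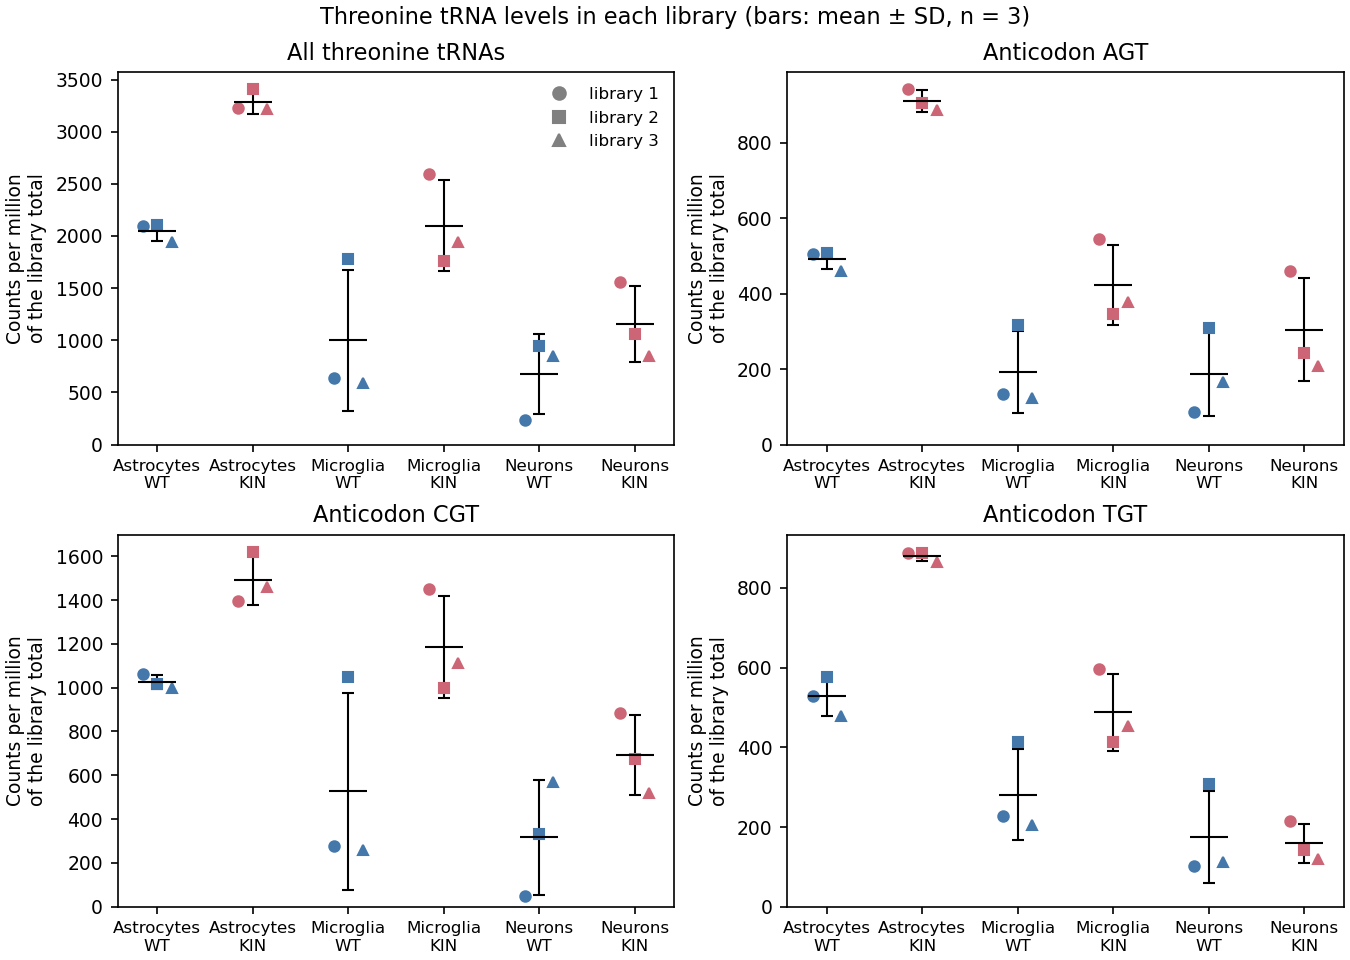
CPM (y axis) of all threonine tRNAs and of each anticodon in the 6 groups (x axis), with 1 point per library, the mean as a long bar and the SD as whiskers. KIN astrocytes lie above WT astrocytes in each panel, and WT microglia replicate 2 lies apart from the other 2 WT microglial libraries.

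In astrocytes, all 3 anticodons stood higher in KIN. Fold changes here and below are log2 values of KIN over WT, or of one fraction over another, from edgeR with trimmed mean of M values (TMM) scaling. The family as a whole differed by 0.81 ± 0.09 (SE, 3 against 3 libraries). AGT differed by 1.02 ± 0.10, TGT by 0.87 ± 0.11 and CGT by 0.67 ± 0.10. Of the 13 isodecoders that passed the filter on low counts, 12 had a positive fold change and 11 did not overlap between genotypes, where 10.3% of all 5541 features lay higher without overlap. The exceptions were AGT-5 and AGT-6, at 6.63 and 1.59 mean CPM in WT. The median over the 13 was 0.85, beside 0.21 over the other 163 tRNA isodecoders and −0.21 over all features. These numbers describe a contrast that led to the choice of the family, and nothing is read from them.

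The astroglial isodecoders with the largest differences were not the most abundant ones. AGT-3 had 45.8, 40.7 and 43.1 CPM in WT and 89.0, 107 and 91.6 CPM in KIN (1.28 ± 0.17). CGT-4 had 15.3, 12.3 and 11.8 CPM in WT and 29.1, 26.5 and 29.3 CPM in KIN (1.24 ± 0.23). AGT-2 and AGT-1 differed by 1.07 ± 0.12 and 1.01 ± 0.12. No KIN library of these 4 isodecoders reached down to a WT library. The most abundant isodecoder, CGT-2, had 624, 581 and 597 CPM in WT and 760.5, 927 and 813 CPM in KIN (0.61 ± 0.11). Its near copy CGT-1 had 403, 404 and 373 CPM in WT and 580.2, 642 and 593 CPM in KIN (0.75 ± 0.11). TGT-3 had 382, 409 and 329.7 CPM in WT and 599.9, 617 and 594 CPM in KIN (0.82 ± 0.12). The family ranked first of 22 tRNA groups in this contrast (20 amino acids, initiator methionine and selenocysteine), with isoleucine second at 0.79. With TMM factors from mature miRNAs alone the family differed by 0.11 only, and the median of all features then stood at −0.90.

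In microglia the fold changes of the family and of each anticodon, with their SEs, were larger than in astrocytes, and whether the fractions differ in this was not tested. The family differed by 1.23 ± 0.46, and CGT, AGT and TGT by 1.31 ± 0.55, 1.32 ± 0.43 and 0.99 ± 0.35. Of 13 isodecoders 12 had a positive fold change and 7 did not overlap, where 6.58% of all 4786 features lay higher without overlap. AGT-7 and CGT-4 passed the filter only through KIN microglia, which favoured a positive value for them. The median over the isodecoders was 1.22, beside 0.88 over the other tRNA isodecoders, which were also mostly positive (157 of 163), and −0.13 over all features. Without WT replicate 2 the family differed by 2.12, and without WT replicate 1 or 3 by 0.84 or 0.87.

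CGT-2 shows how the WT microglia were divided. It had 168, 710.3 and 145 CPM in WT and 970.4, 593 and 655 CPM in KIN (1.26 ± 0.61). CGT-1 had 105, 331 and 111 CPM in WT and 472, 401 and 453 CPM in KIN (1.43 ± 0.47). TGT-3 had 181, 342 and 163 CPM in WT and 465, 337 and 358 CPM in KIN (0.94 ± 0.36). In each, WT replicate 2 was the highest WT library, and CGT-1 alone of these kept the genotypes apart. The value nearest 0 was that of CGT-3, at −0.02 ± 0.58, with 1.73, 2.88 and 1.09 CPM in WT and 1.91, 1.16 and 1.86 CPM in KIN. Its counts were 4 to 10 per library, so that a moderate difference was not detectable at this depth.

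In neurons no isodecoder passed the test. The family differed by 0.79 ± 0.41 (edgeR, adjusted p = 0.855), and the CGT, AGT and TGT sums by 1.16 ± 0.58, 0.70 ± 0.43 and −0.13 ± 0.42 (adjusted p = 0.865, 0.865 and 0.968). Of 13 isodecoders 7 were positive and 6 negative, and 0 were called (past the test at an adjusted p of 0.05 and changed by 1 or more on the log2 scale), as were 0% of the 4381 features, of which 201 had an unadjusted p under 0.05, none of them a threonine isodecoder. DESeq2 also called 0 of the threonine isodecoders. The median over the 13 was 0.36, beside −0.42 over the 155 other tRNA isodecoders. CGT-2 had 10.7, 119.6 and 391 CPM in WT and 583, 472 and 330 CPM in KIN, so that WT replicate 3 lay within the KIN range. TGT-3 had 79.3, 194 and 85.8 CPM in WT and 141, 98.5 and 83.3 CPM in KIN, with overlap. The WT libraries held 13, 234 and 598 reads of CGT-2. Neuronal marker miRNAs were low in both genotypes, and their part in the result was not tested.

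**Figure D2:**
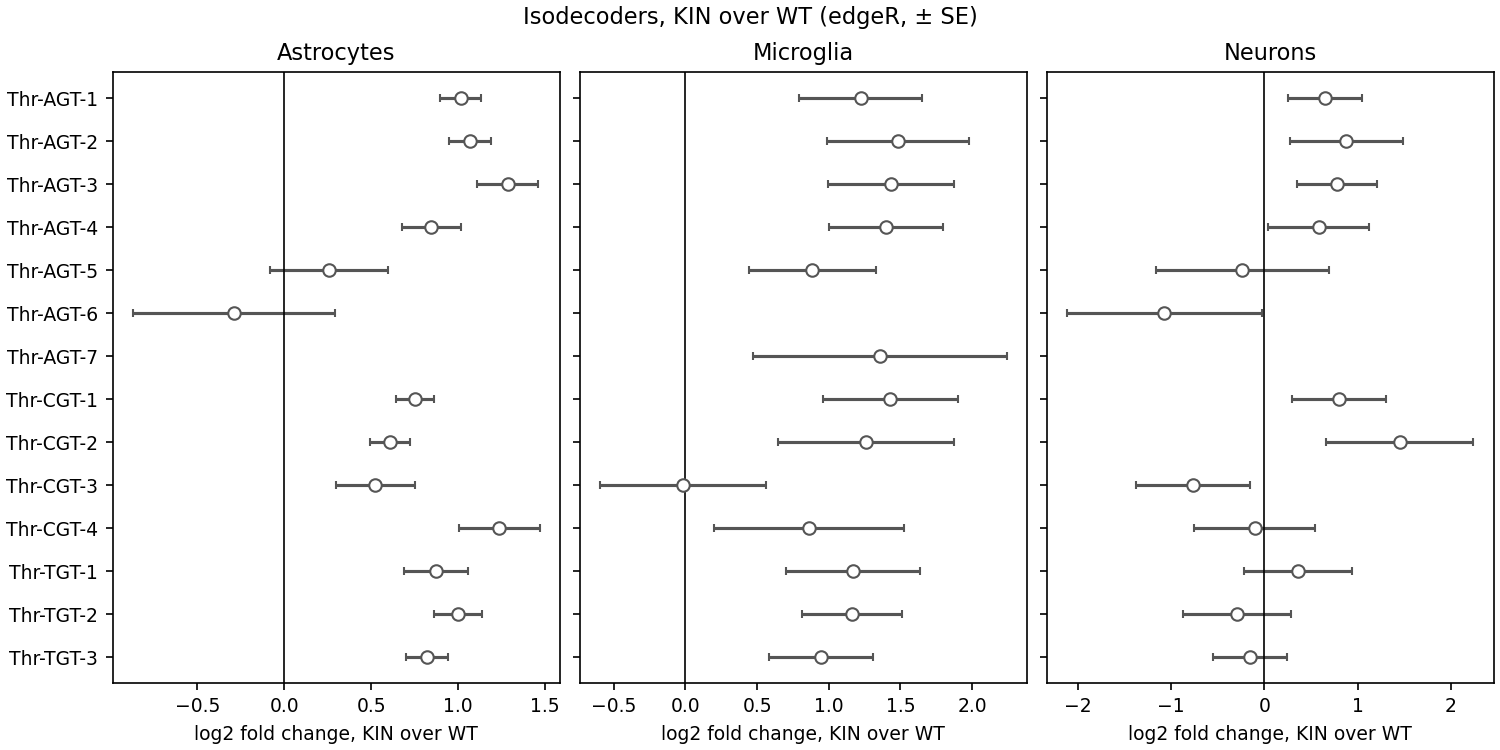
Log2 fold change of KIN over WT (x axis, each panel with its own scale) for each threonine isodecoder (y axis) in astrocytes, microglia and neurons, with points for the estimate and whiskers for ± 1 SE. The astroglial and microglial panels are a description of the contrasts that chose the family, with 12 of 13 isodecoders above 0 in each, and neurons hold 7 above and 6 below 0.

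Between the glial fractions, the largest differences lay in a few 74-base tRNAs. In WT brains 13 of 13 isodecoders had a lower fitted level in microglia than in astrocytes, and 7 of these were called lower, where 19.8% of 6243 features lay. In KIN brains 13 of 14 were lower, 9 passed the test and 6 were called, where 24.3% of 4417 features passed the test and 21.9% were called in the same direction. AGT-6 in both genotypes, and CGT-4 in WT, passed the filter only through astrocytes. The filter thus favoured their lower values, and nothing is read from these, although CGT-4 is among the 7 called in WT. AGT-7 passed it in KIN only through microglia. The medians were −1.42 in WT and −0.97 in KIN, beside −0.19 and 0.34 over the other tRNA isodecoders. The sum over the family missed the threshold in both, with −0.81 ± 0.43 in WT (edgeR, adjusted p = 0.156) and −0.49 ± 0.20 in KIN (adjusted p = 0.065). With the replicate number as a block the WT sum was −1.13 and passed (adjusted p = 0.00981), where same-numbered libraries correlated at 0.289, 0.346 and 0.0432 in their deviations from the group means. Without WT microglia replicate 2 the WT sum was −1.75 (adjusted p = 9.09e-06), with 12 isodecoders called, against 4 without WT microglia replicate 1 or 3. The KIN sum was −0.80 (adjusted p = 6.8e-05) without KIN microglia replicate 1 and −0.60 (adjusted p = 0.043) without KIN astrocyte replicate 1.

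CGT-3, CGT-4 and TGT-1 were low in microglia. They are 74-base tRNAs with the anticodons CGT and TGT, and differ from each other at 3 or 4 bases. The AGT isodecoders belong to the same class of bodies, at 4 to 10 differences from these sequences, and AGT-1, AGT-2 and AGT-3 differed less between fractions (values below). CGT-3 had 17.8, 21.1 and 18.8 CPM in WT astrocytes and 1.73, 2.88 and 1.09 CPM in WT microglia (−3.19 ± 0.47, adjusted p = 0.000528). In KIN it had 25.0, 25.4 and 25.8 CPM in astrocytes and 1.91, 1.16 and 1.86 CPM in microglia (−3.81 ± 0.33, adjusted p = 1.97e-06). The groups were far apart, with microglial counts of 4 to 10 reads per library against 56 to 96 in astrocytes. CGT-4 differed by −3.32 ± 0.37 in KIN (adjusted p = 1.36e-05). Its WT value (−2.85 ± 0.53) is given without a test, because CGT-4 passed the filter there only through astrocytes.

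TGT-1 showed the same direction at a higher level. It had 43.9, 47.0 and 37.6 CPM in WT astrocytes and 3.46, 6.62 and 2.73 CPM in WT microglia (−3.17 ± 0.44, adjusted p = 0.000353). In KIN it had 74.7, 70.0 and 70.7 CPM in astrocytes and 10.8, 7.41 and 6.98 CPM in microglia (−2.96 ± 0.27, adjusted p = 3.18e-06). AGT-4 came next, with 70.6, 85.2 and 67.1 CPM in WT astrocytes and 8.93, 18.1 and 9.00 CPM in WT microglia (−2.46 ± 0.40, adjusted p = 0.00104). Its KIN difference was −1.99 ± 0.23 (adjusted p = 2.08e-05). These 4 isodecoders kept their direction in each of the 12 alternatives run in each genotype. They also stayed past an adjusted p of 0.05 in each, with CGT-4 in WT left out for the reason given above. Their values ranged from −3.79 to −2.14 in WT and from −4.02 to −1.66 in KIN.

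The 72-base and 73-base tRNAs with the same anticodons differed less. CGT-1 gave −0.88 ± 0.45 in WT (adjusted p = 0.148) and −0.31 ± 0.18 in KIN (adjusted p = 0.183). With TMM factors from miRNAs alone the KIN fold change of CGT-1 turned to 0.035 on the log2 scale (adjusted p = 0.93). CGT-2 gave −0.56 ± 0.56 in WT (adjusted p = 0.449) and −0.02 ± 0.24 in KIN (adjusted p = 0.961), where its sign turned with TMM factors from miRNAs alone and with factors that left out tRNA rows. TGT-3 gave −0.52 ± 0.34 and −0.49 ± 0.20, with adjusted p = 0.249 and 0.0632 by edgeR. TGT-2 gave −1.05 ± 0.32 and −0.98 ± 0.24 (adjusted p = 0.024 and 0.00596), with a largest adjusted p of 0.106 over the alternatives in either genotype. AGT-1 gave −0.73 in WT and −0.62 in KIN, AGT-3 −1.08 and −1.03, and AGT-2 −1.42 and −1.10. Isodecoders of the one anticodon CGT thus ranged from −3.19 to −0.56 in WT and from −3.81 to −0.02 in KIN. The values did not divide by length: AGT-1, of the longest class, differed less than the 73-base TGT-2 in both genotypes. A grouping by length or body was not tested. Astroglial marker miRNAs (7410 against 179 CPM in WT) and oligodendrocyte miRNAs (2323 against 32.3 CPM in WT) also differed between these fractions, and the part of admixed cells in the result was not tested.

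**Figure D3:**
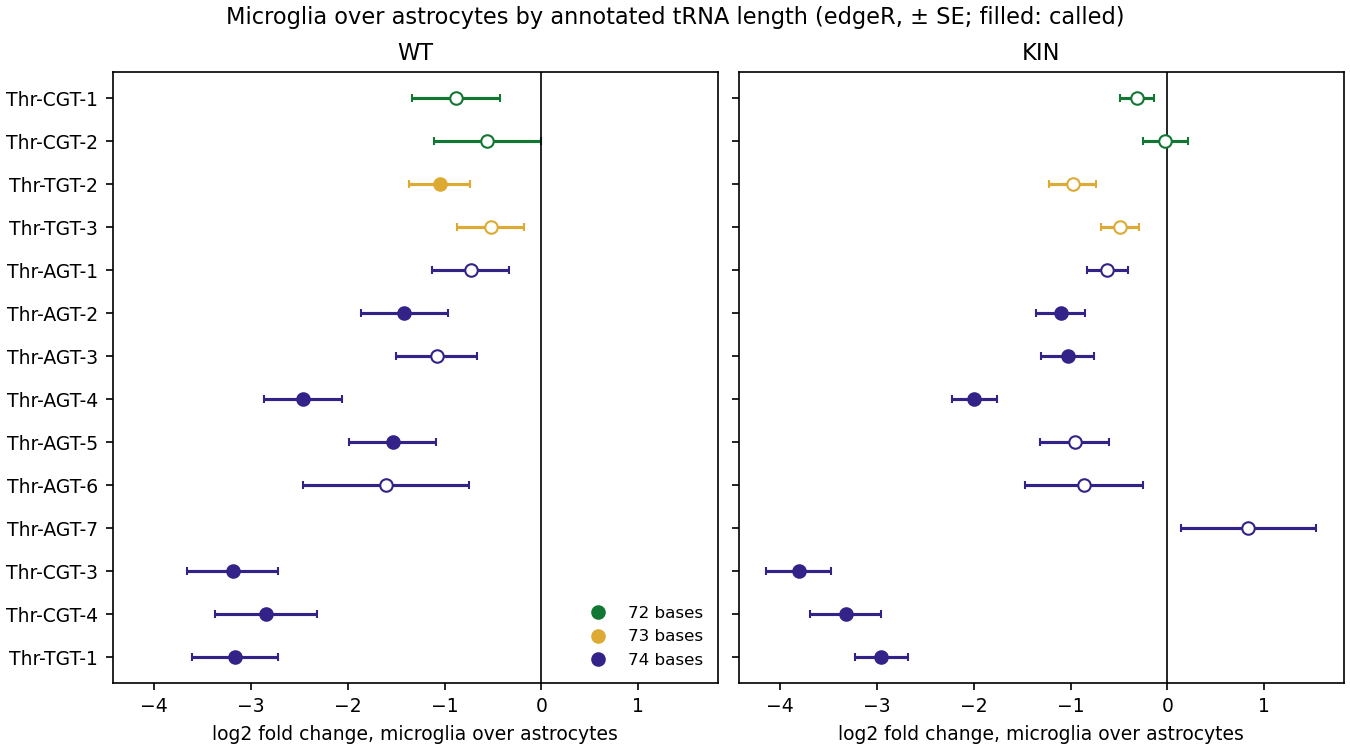
Log2 fold change of microglia over astrocytes (x axis) for each threonine isodecoder (y axis), ordered and coloured by annotated length, in WT (left) and KIN (right), with whiskers for ± 1 SE and filled points where called. CGT-3, CGT-4 and TGT-1 lie at −2.85 or below in both genotypes, while CGT-1 and CGT-2 lie at −0.88 or above. In WT, CGT-4 passed the filter on low counts only through astrocytes.

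Counts from one library divided by each other do not depend on the scaling, and here too CGT-3 and TGT-1 were lower in WT microglia than in WT astrocytes. CGT-3 made up 0.851% to 1.00% of threonine tRNA counts in WT astrocytes and 0.162% to 0.271% in WT microglia. TGT-1 made up 1.94% to 2.23% in WT astrocytes and 0.372% to 0.543% in WT microglia. The 74-base class held 27.3% to 28.0% in WT astrocytes, 30.1% to 33.2% in KIN astrocytes, and 18.5% to 22.1% in microglia of either genotype, without overlap between the fractions. Not all its members went this way: AGT-1 held 9.72% to 10.1% in WT astrocytes and 9.91% to 11.8% in WT microglia. In KIN it held 11.0% to 11.9% in astrocytes and 10.1% to 10.7% in microglia. The 72-base pair CGT-1 and CGT-2 made up 48.6% ± 1.60 (SD, n = 3) of threonine counts in WT astrocytes and 43.8% ± 2.22 in KIN astrocytes. This pair held 48.4% ± 8.84 in WT microglia and 56.4% ± 0.666 in KIN microglia. In neurons it held 38.4% ± 25.1 in WT and 59.3% ± 3.46 in KIN, so that its mean share lay above that of astrocytes in KIN but not in WT.

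The neuronal fraction had fewer threonine tRNA counts than the glial ones on the main scale. In KIN, neurons over astrocytes gave −1.76 ± 0.19 (edgeR, adjusted p = 1.03e-09) under the main scaling, but 1.23 with TMM factors from mature miRNAs alone, which moved the median of all features from 0.12 to 3.10. In WT it gave −1.79 ± 0.45 (adjusted p = 0.0149) under the main scaling and 0.51 from miRNAs alone. All 13 isodecoders were lower in KIN neurons than in KIN astrocytes and 12 were called, where 22.4% of 4847 features were called lower, with 7 called higher instead under the miRNA factors. AGT-6 passed the filter only through astrocytes in both genotypes, as did AGT-5 and CGT-4 in WT. The filter thus favoured lower values for these, and nothing is read from their direction. In WT 6 of 13 were called lower, where 19.8% of 5757 features lay, and 10 with the replicate number as a block (family −2.01, adjusted p = 4.25e-09). The WT count was 11 without WT neuron replicate 2, 3 without WT neuron replicate 3 and 2 without any one of the WT astrocyte libraries. The median over the isodecoders was −1.91 in KIN and −1.64 in WT, beside −1.54 and −0.79 over the other tRNA isodecoders.

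In KIN, but not in WT, TGT had a lower value than CGT. In KIN neurons over astrocytes TGT gave −2.72 ± 0.21 and CGT −1.36 ± 0.19 (adjusted p = 1.06e-13 and 2.33e-07), both of which turned positive under miRNA factors, at 0.27 and 1.64. TGT-3 gave −2.74 ± 0.21 and CGT-2 −1.10 ± 0.20 under the main scaling, and 0.26 and 1.90 under miRNA factors. TGT made up 13.4% to 14.2% of threonine counts in KIN neurons and 26.0% to 27.5% in KIN astrocytes, without overlap, and CGT 56.7% to 63.6% against 43.2% to 47.5%. The difference in the TGT share was 13.0 percentage points (two-sided exact permutation test, p = 0.1, the smallest that 3 against 3 libraries allow, 0.233 adjusted over 7 comparisons). In WT, neurons over astrocytes gave −1.79 ± 0.44 for TGT and −1.90 ± 0.66 for CGT (edgeR, adjusted p = 0.0148 and 0.0496), and both turned positive under miRNA factors, at 0.44 and 0.48. TGT kept its direction and its side of the threshold in 11 of 12 alternatives and CGT in 6 of 12. The mean TGT share was 29.5% in WT neurons and 25.8% in WT astrocytes, and the mean CGT share 40.9% and 50.2%, with overlap in both. The CGT share ranged from 20.5% to 67.1% over the WT neuron libraries and overlapped all other groups.

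Against microglia, the members went in both directions. In KIN, neurons over microglia gave −1.35 ± 0.25 for the family (edgeR, adjusted p = 6.56e-05), and 1.05 with miRNA factors. There 7 of 13 isodecoders were called lower and 2 higher, where 23.9% and 27.5% of 4726 features were called lower and higher. The lower calls include the rare AGT-7, which passed the filter only through KIN microglia. Under the main scaling TGT-3 gave −2.33 ± 0.29 and TGT-2 −1.99 ± 0.34 (adjusted p = 3.4e-07 and 3.06e-05), and both turned positive under miRNA factors. CGT-3 and CGT-4 were the 2 higher ones, at 1.13 ± 0.48 and 1.21 ± 0.44 (adjusted p = 0.0484 and 0.0239), and both were positive under the miRNA factors as well. CGT-3 kept its side of the threshold in 4 of 12 alternatives and CGT-4 in 7 of 12, and DESeq2 gave adjusted p = 0.119 and 0.0581. In WT the family gave −0.83 ± 0.57 (adjusted p = 0.287), with 0 of 12 isodecoders called in either direction where 29.1% of 5010 features were called. Of these isodecoders 4 had an unadjusted p under 0.05, and DESeq2 called 0, while 3 were called with the replicate number as a block. The family value was 0.046 without WT microglia replicate 2.

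As a share of all tRNA counts, threonine tRNAs stood at 1.89% ± 0.0213 (SD, n = 3) in WT astrocytes and 2.70% ± 0.0480 in KIN astrocytes. WT microglia had 0.680% (95% Wilson interval 0.652% to 0.709%), 1.57% and 0.687%, and KIN microglia 1.85%, 1.12% and 1.17%. WT neurons had 0.808%, 0.895% and 1.87%, and KIN neurons 2.65%, 2.09% and 1.87%. The intervals cover counting error only and were far narrower than the spread between libraries outside astrocytes. Of 7 tested comparisons of this share, 4 did not overlap: microglia minus astrocytes gave −0.907 (WT) and −1.32 (KIN) percentage points, and KIN neurons gave −0.502 points minus KIN astrocytes and 0.822 points minus KIN microglia. Each of these had p = 0.1 by the two-sided exact permutation test, the smallest possible, and 0.175 adjusted over the 7. KIN and WT neurons overlapped (1.01 points, exact permutation p = 0.2).

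**Figure D4:**
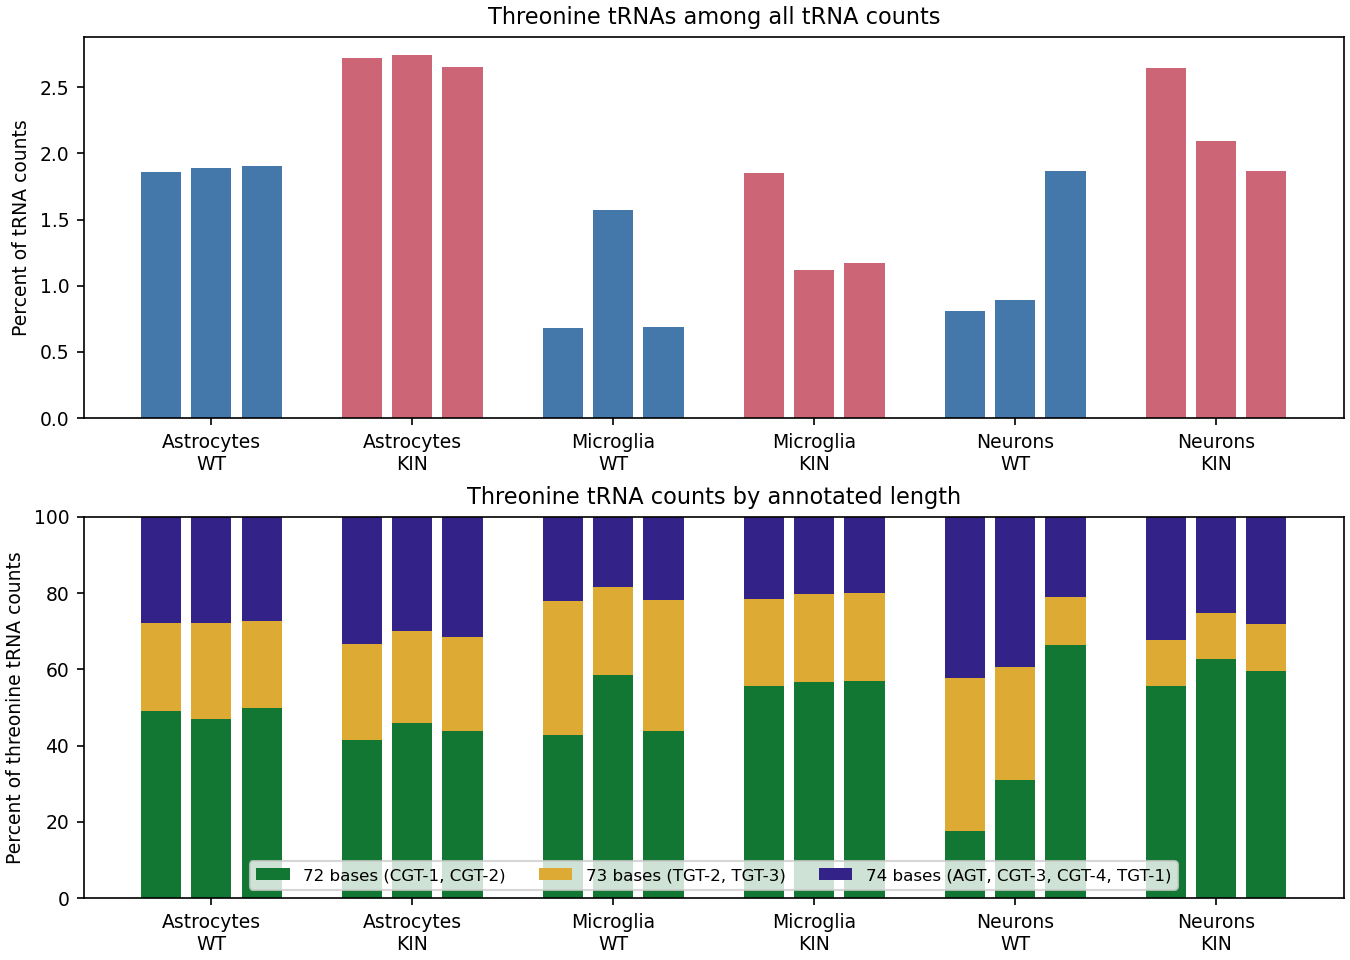
Top, threonine tRNAs as a percent of all tRNA counts (y axis) in each of the 18 libraries (x axis, 3 bars per group, blue WT and red KIN). Bottom, the percent of threonine tRNA counts in each annotated length class. KIN astrocytes lie at 2.65% to 2.74% and WT astrocytes at 1.86% to 1.90%, and WT microglia and neurons hold 1 library each that stands apart.

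Among the tRNA groups, the place of threonine changed with the comparison. From high to low it ranked 22 of 22 in KIN microglia over astrocytes and 20 of 22 in WT, where tryptophan was first with 2.02 and 1.52. It ranked 2 of 22 in KIN over WT neurons (tyrosine was first with 0.89). In neurons over astrocytes it ranked 20 of 22 in WT and 13 of 22 in KIN, and in neurons over microglia 9 of 22 in WT and 2 of 22 in KIN. These ranks are relative to the other tRNAs of the same libraries and carry no test.

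The features whose levels ran most like the family over the 18 libraries were the retained-intron transcript Ttyh1-210 (Pearson r = 0.958), tRNA-Lys-CTT-3 (r = 0.957), tRNA-Asn-GTT-3 (r = 0.923), tRNA-Gln-TTG-3 (r = 0.919) and tRNA-Ile-AAT-3 (r = 0.916), among 1870 features at 10 CPM or more. The libraries fall into fractions and genotypes, so these values describe a shared pattern over groups and depth.

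A list of 42 genes for charging, modification, transcription and cleavage of threonine tRNAs was mostly below the filter in these small RNA libraries. Of these, 41 were in the table and at most 2 passed the filter in a comparison. No synthetase of threonine and no RNA polymerase III subunit passed it. The mitochondrial threonine tRNA mt-Tt differed by −0.30 ± 0.11 between KIN and WT astrocytes and by 0.54 ± 0.20 between KIN and WT microglia, beside 0.81 and 1.23 for the nuclear family. Between fractions mt-Tt was lower in microglia than in astrocytes, by −1.38 ± 0.20 in WT (edgeR, adjusted p = 0.000417) and −0.62 ± 0.18 in KIN (adjusted p = 0.0138). Under the main scaling its differences were larger in neurons over astrocytes, at −3.25 ± 0.69 in WT (adjusted p = 0.00943) and −3.33 ± 0.21 in KIN (adjusted p = 5.05e-16). Neurons over microglia gave −1.78 ± 0.62 in WT (adjusted p = 0.0506) and −2.79 ± 0.27 in KIN (adjusted p = 7.59e-09). One transcript of Tprkb, a subunit of the complex that makes t6A, passed the filter only in comparisons with WT astrocytes. Its value in WT microglia over WT astrocytes (−3.77 ± 1.00) is given without a test, because the filter fixed its direction. Values of these genes under other scalings were not kept. Transcript Ssb-206, from the gene of the La protein that binds new tRNA ends, passed the filter only in comparisons with KIN neurons. Its value in KIN neurons over KIN astrocytes (2.98 ± 0.95) is given without a test for the same reason.

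The remaining members were rare. AGT-5 had 0 to 9.60 CPM, AGT-6 0 to 6.64 CPM and AGT-7 0 to 1.40 CPM over all libraries. AGT-6 failed the filter in some comparisons, and AGT-7 passed it in 3 of the 9 only. It did so each time through its counts in KIN microglia alone. AGT-7 had 0, 0 and 0.41 CPM in KIN neurons and 0.32, 1.39 and 1.40 CPM in KIN microglia. The filter fixed the direction of this difference, so nothing is read from its call as lower.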

How the data were processed

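Small RNA libraries from 18 brain fractions were read as the deposited count table, which held whole-number read counts per feature. According to the methods, the authors trimmed reads with Cutadapt 4.6, kept those of at least 20 bases, aligned them with Bowtie2 2.4.4 to miRNA, tRNA, piRNA, other noncoding RNA and cDNA in turn (build mm39), and counted them with HTSeq 2.0.2 without regard to strand. Whether molecular identifiers were collapsed is not given in the sources used here, so intervals cover counting error only. The table's columns of the authors' own comparisons (fold changes and p-values) were not used, nor were 36 columns of per-library values other than these counts.

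The counts of identical tRNA copies were summed per isodecoder, anticodon and amino acid over the whole table. Each pair of groups was fitted alone (6 libraries) with edgeR 4.0.16 in R 4.3.3, by the quasi-likelihood test with TMM factors, on features that reached 5 counts in 2 or more libraries, and p-values were adjusted over all features tested by the Benjamini-Hochberg method. A feature passed the test where its adjusted p did not exceed 0.05, and was called where its absolute log2 fold change was at least 1 as well. CPM are counts scaled to a library total of 1000000, without TMM. Alternatives were DESeq2 1.42.0, other scalings, no filter, a replicate block and leaving out each library. Named are all threonine isodecoders, their anticodon sums, other amino acids by their sums, the 5 features most correlated on log2(CPM + 1), and pathway genes that passed the filter.

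The members and lists were chosen with earlier results of these data known. Replicates are separate biological replicates per the labels. The labels do not name the brain, and all main fits were unpaired. The replicate number entered as a block in an alternative fit only. This holds also for WT neurons and astrocytes, where the deviations of each same-numbered pair correlated above 0.1 (r = 0.149, 0.313 and 0.106). The blocked value is given beside a result where it changed the call or the number of calls.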

Additional observations from a re-analysis of the deposited data

How the results depend on the processing

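Of 108 alternative values for the family over the 9 comparisons, 92 were judged the same as the main value. In the 7 tested comparisons this meant the same direction and the same side of the threshold. In the contrasts that chose the family it meant a shift smaller than the pooled SD of log2 CPM between libraries. Of 84 counts of called isodecoders over the 7 tested comparisons, 66 equalled the main count or lay within a set ratio of it, without a turn in direction. Calls are not given for the contrasts that chose the family. The cause of the other values was not tested. TMM factors from mature miRNAs alone turned every comparison of neurons with glia: the family gave 0.51 for WT neurons over astrocytes, 1.27 for WT neurons over microglia, 1.23 for KIN neurons over astrocytes and 1.05 for KIN neurons over microglia. In the same order AGT gave 0.66, 1.74, 1.13 and 1.41, CGT 0.48, 1.18, 1.64 and 1.14, and TGT 0.44, 1.06, 0.27 and 0.29. CGT-2 gave 0.46 and 1.90 and TGT-3 0.44 and 0.26 for WT and KIN neurons over astrocytes, and TGT-2 gave 0.40 and TGT-3 0.072 for KIN neurons over microglia. The isodecoders called were then 2, 9, 7 and 9, all higher. In KIN microglia over astrocytes these factors gave 0.18 for CGT, 0.035 for CGT-1 and 0.35 for CGT-2, and factors without tRNA rows gave 0.021 for CGT-2. In KIN over WT astrocytes the family gave 0.11 with miRNA factors, 0.68 with library totals and 0.94 with DESeq2. The family passed the test in WT microglia over astrocytes without the filter (−0.81, adjusted p = 0.00577) and in KIN with library totals (−0.65, adjusted p = 0.00593). Without the filter 1 isodecoder was called in KIN over WT neurons. As a share of all counts, neurons minus microglia was −0.0323 percentage points in WT and −0.0943 in KIN.

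With the replicate number as a block, the family gave −1.13 in WT microglia over astrocytes (adjusted p = 0.00981), TGT gave 0.012 in KIN over WT neurons, and the isodecoders called were 10 in WT neurons over astrocytes and 3 in WT neurons over microglia. WT neurons and astrocytes were the only groups in which each same-numbered pair of libraries correlated above 0.1. In WT neurons over microglia the pairs stood at 0.132, 0.251 and 0.0093. The labels do not say whether a number marks one brain.

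Leaving out 1 library at a time, the family ranged from 0.73 to 0.85 in KIN over WT astrocytes, 0.84 to 2.12 in microglia and 0.37 to 1.05 in neurons. It ranged from −1.75 to −0.48 (WT) and −0.80 to −0.34 (KIN) in microglia over astrocytes, −2.11 to −1.30 and −1.99 to −1.60 in neurons over astrocytes, and −1.23 to 0.046 and −1.57 to −1.05 in neurons over microglia. The isodecoders called ranged from 0 to 0 in KIN over WT neurons and, for the fractions in the same order, from 4 to 12, 4 to 7, 2 to 11, 11 to 12, 0 to 2 and 5 to 7. The share of tRNA counts ranged from 0.789 to 1.35 percentage points in KIN minus WT neurons, −1.20 to −0.757 and −1.56 to −1.19 in microglia minus astrocytes, −1.03 to −0.504 and −0.725 to −0.335 in neurons minus astrocytes, and −0.128 to 0.507 and 0.599 to 1.06 in neurons minus microglia. Signs also turned for TGT (−0.38 to 0.51) and TGT-3 (−0.37 to 0.33) in KIN over WT neurons, AGT (−0.82 to 0.43) and CGT (−1.77 to 0.15) in WT neurons over microglia, and CGT-2 (−0.40 to 0.16) in KIN microglia over astrocytes. WT neuron replicate 1, with 288 threonine counts, was the shallowest library for this family.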
